A study of Homo sapiens with 6 samples.

Results

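This account follows 9 steroid receptor, ERBB2 and luminal lineage genes, namely ESR1, ESR2, PGR, NR3C1, ERBB2, GATA3, FOXA1, XBP1 and ELF5. They were taken by symbol from a table of 17064 genes, and all 9 were found. RNA came from MDA-MB-231, a human breast cancer line derived from a metastatic site and described as triple-negative. The 6 libraries were 2 of cells carrying the empty lentiviral vector, 1 of CDC42BPA knockout cells (MRCKα KO), 1 of CDC42BPB knockout cells (MRCKβ KO) and 2 of double knockout cells (DKO). All cells had been through lentiviral transduction and drug selection. The vector libraries came from separate transductions and the DKO libraries from different guide sets. The knockouts were selected cell pools in which no clones were picked, and each single knockout has 1 library, so its differences from vector have no replicate check.

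Estrogen receptor α (ESR1), estrogen receptor β (ESR2), the progesterone receptor (PGR) and the glucocorticoid receptor (NR3C1) are nuclear receptors that bind steroid hormones and regulate genes from response elements in DNA. A breast tumour is called triple-negative when it lacks estrogen receptor α and the progesterone receptor and does not overexpress the receptor tyrosine kinase ERBB2, judged on protein or gene copy number and not on RNA level. GATA3 and FOXA1 are transcription factors of the luminal lineage that open chromatin for estrogen receptor α. ELF5 drives alveolar, milk-producing differentiation, and XBP1, which is abundant in luminal tumours, controls the unfolded protein response of the endoplasmic reticulum.

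The totals of expected counts, which are estimated reads per gene, lay between 10349898 and 10657857 per library. A count of 0 allows up to 3 counts at this depth, a limit for counting error alone. The targeted genes still had RNA in each library, with 23.3 to 36.4 FPKM for CDC42BPA and 23.4 to 30.3 FPKM for CDC42BPB, and so these levels cannot serve as a test of the genotypes. FPKM divides the reads of a gene by transcript length and library total. The virus was produced in HEK293T cells, for which 5 markers were listed. NEFM had 19 expected counts in MRCKα KO, 2 in DKO 1 and 0 elsewhere, and LIN28B had 10, 1 and 0. PAX8 lay between 2.94 and 3.60 FPKM in all 6 libraries. NEFL and PAX2 had no entry among the genes listed.

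The 9 genes differed widely in level. Mean FPKM over the 6 libraries was 40.6 for XBP1, 28.8 for NR3C1, 14.4 for ERBB2, 3.55 for GATA3, 0.70 for ESR1, 0.30 for ESR2, 0.072 for FOXA1, 0.048 for ELF5 and 0.02 for PGR. From XBP1 down to ESR1 the ranges of neighbours in this order did not overlap, although the lowest XBP1 value (34.8) was close to the highest NR3C1 value (33.8). ESR1 and ESR2 overlapped, as did FOXA1 and ELF5, and ELF5 and PGR, and the lowest ESR2 value equalled the highest FOXA1 value. RNA of the glucocorticoid receptor was thus abundant, that of both estrogen receptors was low, and PGR, FOXA1 and ELF5 had at most 6 expected counts in any library.

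**Figure D1:**
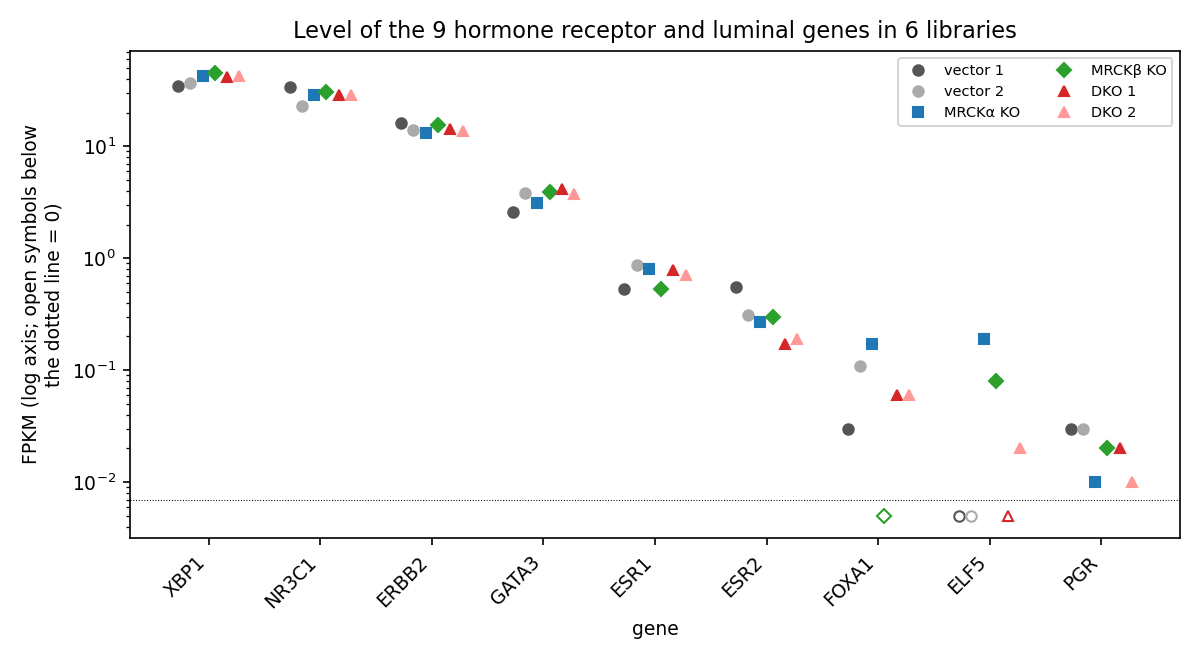
FPKM (log axis) of each gene in the 6 libraries, with 1 symbol per library and values of 0 drawn as open symbols under the dotted line. XBP1, NR3C1 and ERBB2 lie above 13 FPKM in all 6 libraries, while FOXA1 and ELF5 include libraries listed at 0.

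**Figure D2:**
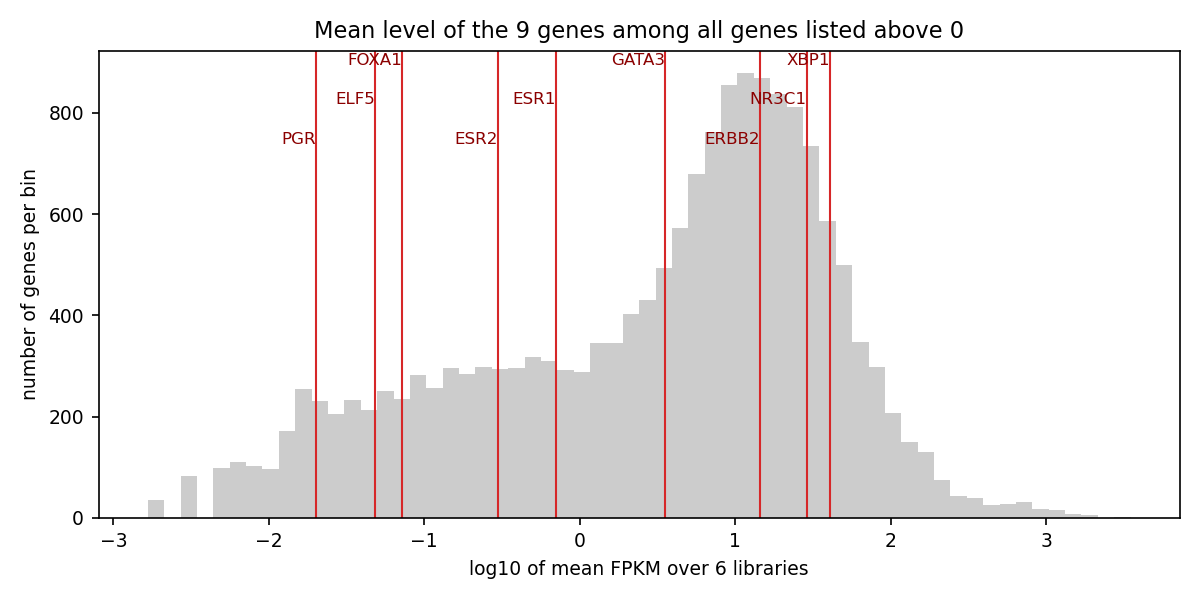
Histogram of log10 mean FPKM over the 6 libraries for all genes above 0 in at least 1 library, with a red line at the mean of each of the 9 genes. XBP1, NR3C1 and ERBB2 fall in the main peak of expressed genes, and ESR1, ESR2, FOXA1, ELF5 and PGR in the tail of low values.

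Among the steroid receptors, ESR1 (gene ID 2099, chromosome 6 from 151656691 to 152129619 on GRCh38, plus strand) had FPKM values of 0.53 (vector 1), 0.87 (vector 2), 0.80 (MRCKα KO), 0.53 (MRCKβ KO), 0.78 (DKO 1) and 0.71 (DKO 2). These rest on 16.2 to 26.0 expected counts per library. The vector libraries spanned the values of all knockouts. Between 26.6% and 30.8% of the listed genes had a lower FPKM than ESR1. The files give ESR1 a transcript length of 2888 to 2891 bases, whereas the 3 curated transcripts of the gene that were matched in GENCODE measure 6357 to 6466 bases. Of the 21 transcript models listed for ESR1, 15 were predicted ones. With a length of 6466 bases the same reads would give 0.24 to 0.39 FPKM, so the level of ESR1 relative to other genes depends on the length used. For DKO against vector, p-values come from the quasi-likelihood test of edgeR and were adjusted over all genes by Benjamini-Hochberg. The log2 fold change of ESR1 in DKO was 0.11 (SE 0.47 in edgeR). Leaving out vector 1 gave -0.22, and leaving out vector 2 gave 0.53.

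ESR2 (gene ID 2100, chromosome 14 from 64084232 to 64338112, minus strand) showed the largest difference among the 6 genes that passed the filter on low counts. Its FPKM was 0.55 (vector 1), 0.31 (vector 2), 0.27 (MRCKα KO), 0.30 (MRCKβ KO), 0.17 (DKO 1) and 0.19 (DKO 2). All 4 knockout libraries thus lay below both vector libraries in FPKM, but in expected counts MRCKβ KO (14.0) did not lie below vector 2 (13.9). Of the 12264 genes with at least 10 counts in all 6 libraries, which do not include ESR2, 4.99% lay lower and 6.77% higher in FPKM in all 4 knockouts. The transcript length that divides the reads also varied between libraries, from 3074 to 4420 bases. DKO had 14 reads in its 2 libraries against 32 in the vector libraries, a log2 ratio of -1.19 with an exact 95% interval from -2.21 to -0.24 for counting error alone, which sets these libraries side by side. With the spread between libraries taken into account, the log2 fold change was -1.19 (SE 0.54, edgeR, unadjusted p = 0.0679, adjusted p = 1.00). Whether fewer cells with the transcript or less RNA per cell lie behind such a value cannot be told apart in bulk RNA, here and in what follows.

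PGR (gene ID 5241, chromosome 11 from 101029624 to 101130524, minus strand) is itself a classical target of estrogen receptor α. It had 3 expected counts (vector 1), 4 (vector 2), 1 (MRCKα KO), 2 (MRCKβ KO), 2 (DKO 1) and 1 (DKO 2), or 0.01 to 0.03 FPKM. The DKO libraries held 3 reads and the vector libraries 7, with a log2 ratio of -1.22 and an exact 95% interval from -3.80 to 0.91 for counting error only. No difference in PGR was detectable at this depth.

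NR3C1 (gene ID 2908, chromosome 5 from 143277931 to 143435512, minus strand) was the one steroid receptor among the 9 genes with abundant RNA. Between 77.9% and 84.97% of the listed genes had a lower FPKM. Its FPKM was 33.8 (vector 1), 22.7 (vector 2), 28.4 (MRCKα KO), 30.5 (MRCKβ KO), 28.4 (DKO 1) and 28.8 (DKO 2). The knockout libraries were close to each other and all lay between the vector libraries, which stood 1.49-fold apart. Of the same 12264 genes, which include NR3C1, 15.7% differed by at least as much between the vector libraries. The log2 fold change in DKO was 0.0019 (SE 0.19 in edgeR). It came to 0.31 without vector 1 and to -0.25 without vector 2, so the vector library used decided its sign.

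Related receptors were measured as well. The mineralocorticoid receptor NR3C2 lay between 4.87 and 5.60 FPKM and the estrogen-related receptor ESRRA between 11.1 and 16.2 FPKM. ESRRG had 0 to 0.09 FPKM. ESRRB had no entry among the genes listed. Neither NR3C2 (log2 fold change in DKO -0.04, SE 0.14) nor ESRRA (-0.12, SE 0.22) had an unadjusted p under 0.05 in edgeR.

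Target genes of the receptors were taken as lists. Of all 13123 genes tested, 49.3% had a positive log2 fold change. Of 15 tested estrogen receptor targets, 7 were higher and 8 lower in DKO, with a median log2 fold change of -0.02 against -0.0024 over all genes, and 0 had an unadjusted p under 0.05. The median ran from -0.24 without vector 2 to 0.05 without vector 1, so 1 library turned its sign. Of the 20 listed targets 19 had an entry among the genes listed, and 13 had a mean of at least 1 FPKM. CCND1, which encodes cyclin D1, and IGFBP4, which encodes a binding protein of insulin-like growth factors, were the highest, with 186 to 230 and 176 to 389 FPKM, followed by the zinc transporter SLC39A6 with 20.5 to 35.8 FPKM. GREB1 lay between 0.26 and 1.15 FPKM. TFF1, a secreted trefoil peptide, had 3.14 FPKM in vector 1 and 4.12 in MRCKβ KO but 0 in vector 2, 0.40 in MRCKα KO and 0.20 in each DKO library. Its values followed no genotype, since the vector libraries held 16 and 0 expected counts.

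Of 13 tested glucocorticoid receptor targets, 9 were higher and 4 lower in DKO, with a median log2 fold change of 0.20. Leaving out vector 1 gave a median of 0.57, leaving out DKO 2 one of 0.31 and leaving out vector 2 one of -0.05, and its sign thus rested on 1 library. Unadjusted p was under 0.05 for 3 higher genes and 1 lower gene, against 179 (1.36%) higher and 134 (1.02%) lower of the 13123 genes tested (2.39% in both directions), and none had an adjusted p under 0.05. SGK1, a serum- and glucocorticoid-regulated kinase, had 7.36 and 7.27 FPKM (vector 1 and 2), 11.1 (MRCKα KO), 8.88 (MRCKβ KO) and 11.9 and 12.6 (DKO 1 and 2). All 4 knockout libraries lay above both vector libraries, and its log2 fold change in DKO was 0.70 (SE 0.15, edgeR, unadjusted p = 0.00337, adjusted p = 1.00). FKBP5, which binds the receptor complex, also lay above vector in all 4, with 16.2 and 18.4 FPKM in vector and 19.0 to 21.9 FPKM in the knockouts. Its log2 fold change in DKO was 0.20 (SE 0.14, edgeR, unadjusted p = 0.201). Of the 12 genes of this list with at least 10 counts in all libraries, 2 were higher and 1 lower in all 4 knockouts, against 6.77% and 4.99% of all such genes. PER1, a clock gene, had a log2 fold change of 0.52 (SE 0.21, edgeR, unadjusted p = 0.0466). NFKBIA, which encodes the NF-κB inhibitor IκBα, had one of 0.42 (SE 0.17, edgeR, unadjusted p = 0.0488). MRCKβ KO lay between the vector libraries for PER1, and MRCKα KO did so for NFKBIA. ANGPTL4, which encodes an inhibitor of lipoprotein lipase, was lower, with 3.48 and 4.99 FPKM in vector and 0.91 to 2.69 FPKM in the knockouts (log2 fold change -1.58, SE 0.48, edgeR, unadjusted p = 0.0149, adjusted p = 1.00). SGK1, NFKBIA and ANGPTL4 also respond to signals other than glucocorticoids. TSC22D3, the glucocorticoid-induced leucine zipper, had 6.91 and 3.82 FPKM in vector and 5.54 to 7.33 FPKM in the knockouts, which overlapped. PDK4 had the second largest difference of the list and was lower in DKO (log2 fold change -1.25, SE 0.67, edgeR, unadjusted p = 0.108). MT2A, the most abundant gene of the list, had a log2 fold change of -0.07 (SE 0.16).

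Over the 15 chaperones and coregulators of steroid receptors the median log2 fold change was -0.02, and it turned positive with any 1 library left out (0.01 to 0.13). HSPA8, HSP90AB1 and HSP90AA1, which hold the unliganded glucocorticoid receptor in a binding-competent state, were the highest, with 948 to 1409, 869 to 1012 and 636 to 981 FPKM. NRIP1, a corepressor of nuclear receptors, was the only one with an unadjusted p under 0.05, with 2.90 and 2.23 FPKM in vector and 3.31 and 4.75 FPKM in DKO (log2 fold change 0.63, SE 0.24, edgeR, unadjusted p = 0.0361, adjusted p = 1.00).

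ERBB2 (gene ID 2064, chromosome 17 from 39687914 to 39730426, plus strand) encodes the HER2 receptor tyrosine kinase. Its FPKM was 16.2 (vector 1), 13.8 (vector 2), 13.2 (MRCKα KO), 15.4 (MRCKβ KO), 14.3 (DKO 1) and 13.6 (DKO 2), with 632 to 809 expected counts. This placed it above 66.1% to 70.4% of the listed genes. The groups overlapped, and among genes of like level its spread was small, with a coefficient of variation of 7.85% over the 6 libraries against a median of 10.7% in 4810 genes within 2-fold of its mean. The log2 fold change in DKO was -0.17 (SE 0.14, edgeR, unadjusted p = 0.263, adjusted p = 1.00).

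The neighbours of ERBB2 on chromosome 17, which are often amplified with it in HER2-positive tumours, did not share 1 level. MIEN1 had 33.9 to 49.9 FPKM and STARD3 15.6 to 19.4 FPKM, whereas PGAP3 had 0.89 to 1.83 FPKM, GRB7, an adaptor of the receptor, 0.41 to 1.01 FPKM and IKZF3 0.76 to 1.07 FPKM. PPP1R1B, TCAP and PNMT stayed at or below 4 expected counts. Among the partners with which ERBB2 forms dimers, EGFR was the highest with 51.0 to 59.2 FPKM, while ERBB3 lay between 1.69 and 2.85 FPKM and ERBB4 had at most 2 expected counts. For ERBB3 the scale mattered. Its FPKM was lower in all 4 knockouts (1.69 to 2.15) than in vector (2.37 and 2.85), but its expected counts overlapped (56.3 to 90.6 against 46.2 and 71.6), since the length given for it was 1892 and 2357 bases in vector and 3115 to 3943 bases in the knockouts. Its log2 fold change on counts was 0.14 in DKO (SE 0.35). Over the 7 tested genes of this list the median was -0.04, and 0 had an unadjusted p under 0.05. The median was -0.13 without vector 2, -0.12 without DKO 1, 0.04 without vector 1 and 0.05 without DKO 2.

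GATA3 (gene ID 2625, chromosome 10 from 8045378 to 8075203, plus strand) had more RNA than FOXA1 and ELF5 in 6 of 6 libraries. It had 75 counts (vector 1), 105 (vector 2), 86 (MRCKα KO), 111 (MRCKβ KO), 117 (DKO 1) and 106 (DKO 2). In FPKM these were 2.59, 3.79, 3.10, 3.90, 4.18 and 3.74, so that MRCKα KO and DKO 2 lay between the vector libraries. The log2 fold change in DKO was 0.29 (SE 0.28, edgeR, unadjusted p = 0.335, adjusted p = 1.00), and it ranged from 0.05 without vector 1 to 0.58 without vector 2. Per length, GATA2 was higher than GATA3 in 6 of 6 libraries (6.87 to 10.7 FPKM) and GATA6 in 5 of 6 (3.27 to 5.93 FPKM).

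FOXA1 (gene ID 3169, chromosome 14 from 37589984 to 37596059, minus strand) had 1 expected count (vector 1), 4 (vector 2), 6 (MRCKα KO), 0 (MRCKβ KO), 2 (DKO 1) and 2 (DKO 2), so its highest FPKM was 0.17. MRCKα KO was the highest library, with 6 reads against 5 in the vector libraries together and an exact 95% interval of the log2 ratio from -0.69 to 3.33. Its close relative FOXA2, better known from liver and other endoderm, reached 26.3 to 35.6 FPKM in the same libraries. FOXA2 was thus the higher paralogue in 6 of 6 libraries. FOXA3 had 0.05 to 0.80 FPKM. Of 8 tested GATA, FOXA and ELF relatives 6 were higher in DKO and 2 lower, with a median log2 fold change of 0.21 and 0 with an unadjusted p under 0.05. The median was 0.07 without vector 2, 0.06 without DKO 1, 0.32 without vector 1 and 0.37 without DKO 2.

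ELF5 (gene ID 2001, chromosome 11 from 34478793 to 34513805, minus strand) was listed at 0 in vector 1, vector 2 and DKO 1. The other libraries held few reads, with 3.99 expected counts for MRCKα KO, 1.82 for MRCKβ KO and 0.47 for DKO 2. Against a limit of 3 counts per vector library, MRCKα KO stood 1.3-fold higher when its own count is taken as exact. That count has a 95% interval from 1.09 to 10.2 for counting error alone, which includes the limit. The highest ELF5 and FOXA1 values fell in the same library as the HEK293T markers NEFM and LIN28B, and the part of those cells in these few reads was not tested. ELF4 (28.4 to 34.8 FPKM) and ELF1 (12.8 to 15.3 FPKM) were the abundant members of the ELF family, and EHF, an epithelial relative of ELF5, had 4.56 and 4.91 FPKM (vector 1 and 2), 13.1 (MRCKα KO), 6.44 (MRCKβ KO) and 11.02 and 5.03 (DKO 1 and 2). The knockouts were all above vector for EHF, DKO 2 by very little (log2 fold change in DKO 0.74, SE 0.35, edgeR, unadjusted p = 0.076, adjusted p = 1.00). Of the milk genes, PRLR, the prolactin receptor, stayed between 0.28 and 1.03 FPKM, and the listed caseins and LALBA had no entry among the genes listed. The 3 tested alveolar genes were all higher in DKO (median log2 fold change 0.26), 0 of them with an unadjusted p under 0.05. Their median was 0.61 without vector 1, 0.64 without DKO 2, 0.31 without vector 2 and 0.19 without DKO 1.

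XBP1 (gene ID 7494, chromosome 22 from 28794555 to 28800597, minus strand) was the highest of the 9 genes, above 85.4% to 89.0% of the listed genes. It had 34.8 FPKM (vector 1), 36.9 (vector 2), 42.7 (MRCKα KO), 45.2 (MRCKβ KO), 41.7 (DKO 1) and 42.2 (DKO 2), on 671, 692, 801, 868, 788 and 804 expected counts. For XBP1 all 4 knockout libraries lay above both vector libraries. Of the 12264 genes counted above, 6.77% were likewise higher in all 4 knockouts and 4.99% lower, and for the DKO libraries alone these shares were 17.2% and 12.3%. XBP1 was 1 of the 5 genes described here that could show it. The log2 fold change in DKO was 0.21 (SE 0.12, edgeR, unadjusted p = 0.149, adjusted p = 1.00), or 41.9 ± 0.42 against 35.9 ± 1.49 FPKM (SD, n = 2 each). In the single knockouts the log2 ratio of reads was 0.25 for MRCKα KO (exact 95% interval 0.12 to 0.38) and 0.33 for MRCKβ KO (0.21 to 0.46), against -0.09 (-0.24 to 0.07) between vector 1 and vector 2. These intervals cover counting error only, and the 3 comparisons share the vector libraries.

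XBP1 transcription is known to be raised by ATF6 through the endoplasmic reticulum stress element, and the mRNA is then spliced by IRE1 (ERN1) into the active form. The counts per gene do not separate the spliced from the unspliced form. The element was searched on both strands as CCAAT and CCACG with 9 bases of any kind between them, over the 250 bases before each start site in RefSeq (GRCh38.p14). It was found before XBP1 alone among the 9 genes, and in 3 of the 15 genes of the unfolded protein response list that had a promoter sequence. Over all 35116 promoter windows 26 (0.074%) held it. The window of XBP1 is shown because XBP1 is the gene whose knockout libraries all lay above vector. It lies on the minus strand at chr22:28800570-28800819, and capitals mark the fixed letters of the element.
XBP1: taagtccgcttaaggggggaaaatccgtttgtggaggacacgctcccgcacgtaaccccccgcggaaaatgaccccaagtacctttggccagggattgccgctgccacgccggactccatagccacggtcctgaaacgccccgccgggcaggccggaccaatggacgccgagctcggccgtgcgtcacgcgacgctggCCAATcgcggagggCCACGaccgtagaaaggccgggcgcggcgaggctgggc

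The matching stretches of the other genes are given for comparison, each read along the strand of its gene, so that the element appears reversed before CRELD2. They lie at chr22:28800603-28800621 for XBP1, chr9:125241391-125241409 for HSPA5, chr2:10812853-10812871 for PDIA6 and chr22:49918554-49918572 for CRELD2. They begin 52, 66, 86 and 80 bases before the start sites. A match describes letters only and says nothing of binding.
XBP1: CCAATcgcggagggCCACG
HSPA5: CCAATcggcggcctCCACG
PDIA6: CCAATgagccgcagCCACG
CRELD2: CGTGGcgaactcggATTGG

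Whether the genes that carry the element move together was not tested. HSPA5, the chaperone BiP, had 183 and 191 FPKM (vector 1 and 2), 218 (MRCKα KO), 274 (MRCKβ KO) and 222 and 164 (DKO 1 and 2). Its log2 fold change in DKO was 0.02 (SE 0.17 in edgeR). PDIA6, a disulfide isomerase, had one of -0.17 (SE 0.15), and CRELD2, a secreted stress protein, one of -0.36 (SE 0.29). DKO and vector overlapped for all 3, which was not so for XBP1. Over the 16 genes of the unfolded protein response the median log2 fold change was 0.05, with 11 higher and 5 lower, and it ranged from -0.12 without DKO 1 to 0.14 without DKO 2. DDIT3, the stress factor CHOP, had 23.9 and 25.6 FPKM in vector and 35.2 to 47.8 FPKM in the knockouts, all above vector (log2 fold change in DKO 0.73, SE 0.17, edgeR, unadjusted p = 0.00488, adjusted p = 1.00). HERPUD1, which takes part in degradation of misfolded proteins, had 29.1 and 19.1 FPKM in vector and 30.4 to 49.5 FPKM in the knockouts. DNAJB9 was also above vector in all 4 knockouts, and SDF2L1 below, which makes 3 higher and 1 lower of the 16 genes, against the 6.77% and 4.99% of all genes given above.

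Across the 9 genes, 6 passed the filter on low counts in DKO against vector, and PGR, FOXA1 and ELF5 did not. Of the 6, 4 had a positive and 2 a negative log2 fold change, and edgeR gave 0 with an adjusted or an unadjusted p under 0.05. DESeq2's Wald test also gave 0 of the 6. Over all 13123 genes, 0 (0%) had an adjusted p under 0.05 and 313 (2.39%) an unadjusted p under 0.05. By the 2-fold rule on FPKM used in the study, which leaves out genes more than 2-fold apart between replicates, 7 of the 9 genes had a ratio and FOXA1 and ELF5 did not. The paper also reports leaving out poorly expressed genes but gives no cutoff, and no such cut was applied here. The rule took ESR2 and PGR as lower in DKO (2 of 7, where 1.78% of all genes passed and 0.759% were lower), PGR as lower in MRCKα KO (1 of 7, where 4.42% passed and 2.48% were lower) and none in MRCKβ KO (where 3.53% passed). With a mean FPKM of at least 1 required in either group, it took none of the 9 genes in DKO, MRCKα KO or MRCKβ KO. ESR2 went from 0.43 ± 0.17 to 0.18 ± 0.014 FPKM (SD, n = 2 each), a log2 ratio of -1.26, which was -0.78 against vector 2 alone and -0.92 with 0.1 added to each value. PGR passed on 1 to 4 reads per library, and its interval in MRCKα KO, where 1 read faced 7, ran from -7.28 to 1.17 on the log2 scale for counting error only.

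**Figure D3:**
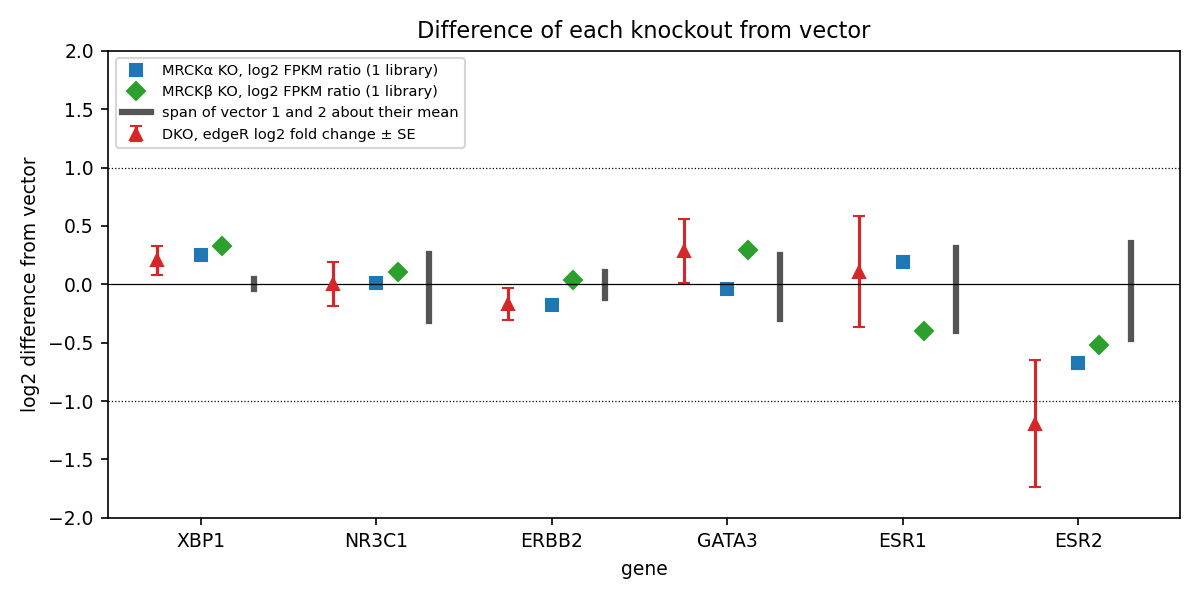
Log2 difference from vector of the 6 genes that passed the filter, with triangles for DKO (edgeR, bars are 1 standard error), squares and diamonds for the single knockout libraries and a grey bar for the span of vector 1 and vector 2 about their mean FPKM. Dotted lines mark a 2-fold change. ESR2 is the only gene beyond a dotted line, and XBP1 is the only one whose 3 symbols all lie above the vector span.

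The luminal and mesenchymal programmes were set beside the 9 genes to check the label of the line. The mesenchymal markers VIM (1532 to 2052 FPKM), AXL (237 to 367), CD44 (111 to 203), CAV1 (166 to 281), MSN (334 to 407) and EGFR (51.0 to 59.2) were high in all 6 libraries. Of the 21 listed basal and mesenchymal markers 19 had an entry, without KRT5 and TWIST1, and 14 had a mean of at least 1 FPKM. The 5 below it were KRT14 (0.18 to 0.64), KRT17 (0.24 to 1.55), TP63 (0 to 0.25), SPARC (0.16 to 1.22) and CDH2, which encodes N-cadherin (0.27 to 0.65). The epithelial markers EPCAM (0.73 to 2.62 FPKM), CDH1, which encodes E-cadherin (0.25 to 0.64), and ESRP1 (0.03 to 0.23) were low. GRHL2 had no entry among the genes listed. The keratins of simple epithelium KRT8 (138 to 220 FPKM) and KRT18 (153 to 189 FPKM) were nonetheless abundant, and SPDEF, a luminal ETS factor, lay between 3.27 and 8.28 FPKM. KRT7, KRT19, MLPH and CLDN4 were not low either. Of the 22 listed luminal markers 19 had an entry among the genes listed, and 12 had a mean of at least 1 FPKM.

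In DKO, 6 of 13 tested luminal markers were higher and 7 lower (median log2 fold change -0.10), and 6 of 17 basal and mesenchymal markers were higher and 11 lower (median -0.09). The luminal median was -0.39 without vector 2 and -0.31 without DKO 1 but 0.26 without vector 1 and 0.10 without DKO 2. The mesenchymal one was 0.06 without vector 2, so the library used decided both signs. MLPH, a melanophilin that is high in luminal tumours, had the lowest p of the luminal list, with 27.9 and 32.9 FPKM (vector 1 and 2), 17.4 (MRCKα KO), 28.2 (MRCKβ KO) and 20.6 and 20.5 (DKO 1 and 2) (log2 fold change -0.57, SE 0.14, edgeR, unadjusted p = 0.0064, adjusted p = 1.00). MRCKβ KO lay between the vector libraries for MLPH. EPCAM was lower in all 4 knockouts than in vector, with the lowest value in MRCKα KO (log2 fold change in DKO -0.37, SE 0.35, edgeR, unadjusted p = 0.330). EHF, of the same list, was higher in all 4. Of the 12 luminal markers with at least 10 counts in all libraries, 1 was thus lower and 1 higher in all 4 knockouts. Among all such genes these shares were 4.99% and 6.77%.

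A second pattern, seen in luminal genes but not confined to them, followed the library number and not the genotype. KRT19 had 60.4, 62.2, 57.5 and 48.1 FPKM for vector 1, MRCKα KO, MRCKβ KO and DKO 1, but 28.9 in vector 2 and 21.5 in DKO 2. KRT7 was 52.4, 61.1, 55.1 and 57.4 against 34.5 and 25, and AGR2, a luminal secretory protein, 3.58, 2.87, 6.82 and 2.89 against 0.67 and 0.49. CLDN4 and CLDN7, components of tight junctions, had the same 2 libraries as their lowest. So had the mesenchymal marker CAV1 (178 and 166 FPKM), whereas CD44 had them as its highest (203 and 178 against 111 to 132 FPKM elsewhere). Of 12 luminal markers with at least 10 counts in all libraries, 7 were lower in library 2 than in library 1 of both vector and DKO and 0 were higher in both. Among the estrogen receptor targets these numbers were 7 and 1 of 12. They were 6 and 1 of 12 among the glucocorticoid receptor targets and 5 and 0 of 7 among the GATA, FOXA and ELF relatives. Basal and mesenchymal markers (6 and 5 of 15), chaperones and coregulators (5 and 6 of 15) and genes of the unfolded protein response (6 and 4 of 16) were more even. Over all 12264 such genes, 29.9% were lower and 31.8% higher in both. Of the 9 genes described here, ERBB2 was lower in library 2 of both groups, XBP1 was higher in it, and NR3C1, ESR1 and GATA3 went different ways in the 2 groups. No label ties these numbers to a batch.

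**Figure D4:**
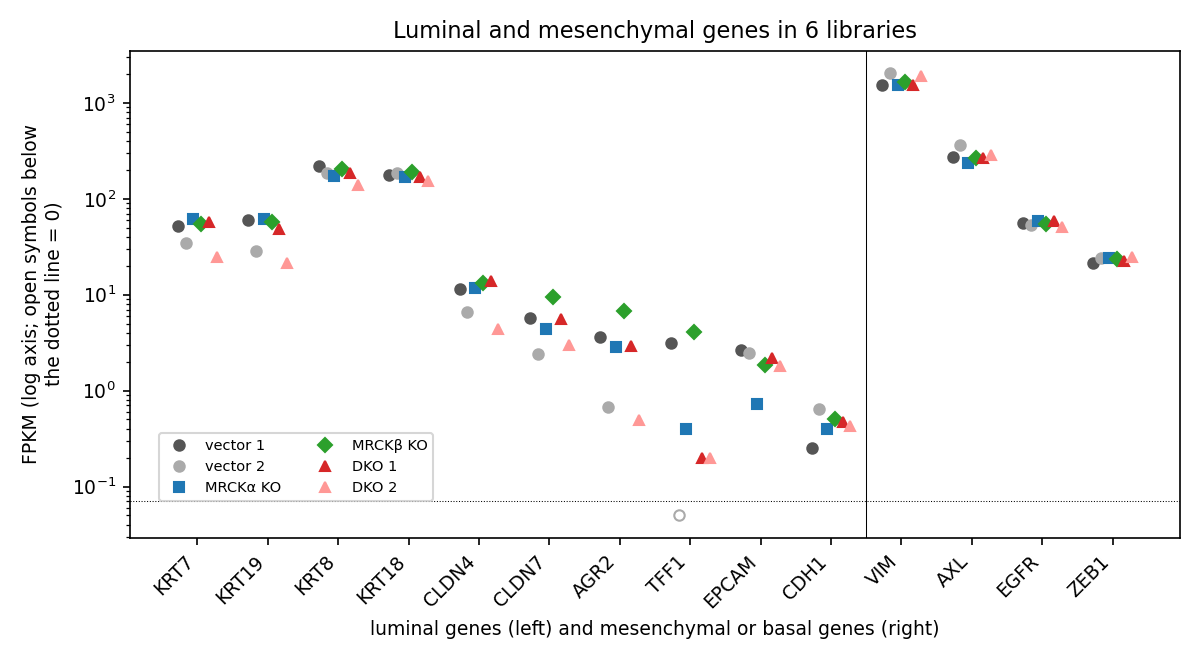
FPKM (log axis) of luminal genes (left of the line) and mesenchymal or basal genes (right) in the 6 libraries, with a value of 0 drawn as an open symbol under the dotted line. For KRT7, KRT19, CLDN4, CLDN7 and AGR2 the lowest symbols are vector 2 and DKO 2. VIM, AXL, EGFR and ZEB1 spread less than these, and VIM and AXL are highest in vector 2.

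**Figure D5:**
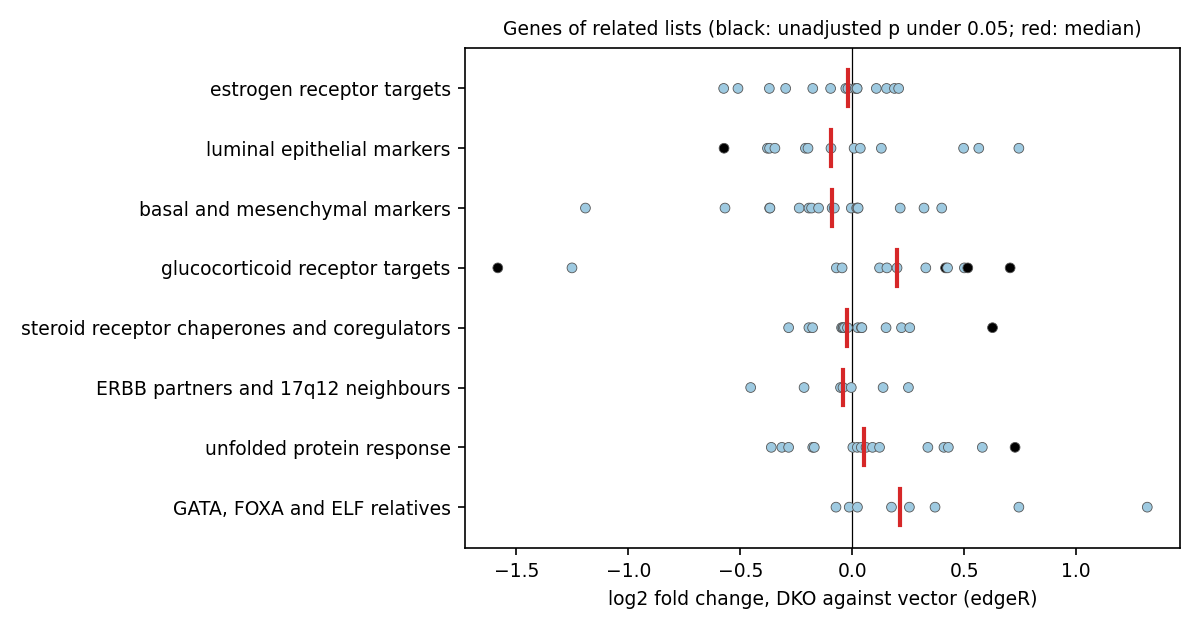
Log2 fold change of DKO against vector for each tested gene of 8 related lists, 1 point per gene, with black points for an unadjusted p under 0.05 in edgeR's test and a red bar for the median of the list. The medians lie between -0.10 and 0.21, and the black points are 3 higher and 1 lower gene of the glucocorticoid list, DDIT3, NRIP1 and MLPH.

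Finally, the genes most like each well-covered member over the 6 libraries were listed by Pearson's r of log2(FPKM + 0.1) with a mean over 6 libraries no lower than 1 FPKM. They are descriptions over 6 points, which many genes can match by their number alone. For NR3C1 they were MOAP1, CAP2 and ITPRIPL2 (r = 0.997, 0.995 and 0.988), with 274 genes above 0.9. For XBP1 they were LOC101929796, RGS14 and EPOP (r = 0.986, 0.976 and 0.975), with 43 genes above 0.9. For ERBB2 they were EPAS1, CELSR1 and RNF130 (0.996, 0.994 and 0.987), for GATA3 ZC3HC1, B4GALNT1 and RHOBTB2 (0.985, 0.972 and 0.965) and for ESR1 CDC23, DCUN1D5 and MAGOHB (0.998, 0.997 and 0.993).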

How the data were processed

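The authors had the RNA sequenced by BGI as single-end reads. Per the labels, the submitters' processing notes name HISAT, Bowtie2 and RSEM and the build GRCh38.p11. Expected counts, the reads estimated for a gene, were deposited for each library separately and were not normalized or all whole. The deposited FPKM values are rounded to 2 decimals, and the deposited length per gene and library is the one used in FPKM. Expected counts were rounded, kept by filterByExpr, normalized by TMM and tested between DKO and vector with the quasi-likelihood test of edgeR 4.0.16 on 4 libraries, with Benjamini-Hochberg adjustment over all genes and a threshold of 0.05. Alternatives used DESeq2 1.42.0 and limma 3.58.1. The 2-fold rule followed the study's methods, with no cut on expression level. Exact intervals of read ratios are Clopper-Pearson intervals at 95%. An exact permutation test of 2 against 2 libraries cannot go below p = 0.333 (two-sided) and was not used. Gene positions and transcript lengths came from GENCODE 29 on GRCh38, and promoters from RefSeq. The 9 genes and the lists were chosen with earlier results of these data known. Named genes were drawn from the 9, the targeted genes, the 3 most abundant and 2 most changed genes of each list, those with an unadjusted p under 0.05, other steroid receptors (1 gene of that list is not reported here) and ERBB2 partners and neighbours, the 3 genes most like each member and the markers of the line, of luminal cells and of HEK293T cells, and not all of these are named. GREB1, TFF1, CLDN4, CLDN7, ZEB1, FKBP5, TSC22D3, DNAJB9, SDF2L1, CRELD2, GATA2 and GATA6 are outside this rule and were chosen after their values were seen. The same holds for KRT5, KRT14, KRT17, TP63 and TWIST1. Protein sequences were not used here.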

Additional observations from a re-analysis of the deposited data

How the results depend on the processing

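No alternative gave any of the genes it could test among the 9 an adjusted p under 0.05 in DKO against vector. Over all genes, 0 were called by edgeR, 4 by DESeq2, 5 with the replicate number as a replicate block and 0 to 5 when 1 of the 4 libraries was left out (5 without DKO replicate 1, 1 without vector replicate 1). The block gave 0 of the 6 genes in the fit. The numbers tie the libraries to no batch, and with 2 pairs the correlation of the deviations of vector 1 and DKO 1 from their group means (r = 0.28 over 13123 genes) does not settle a pairing. The log2 fold change of NR3C1 in DKO was close to 0 and was -0.00041 with at least 10 counts in every library, -0.0012 with all 6 libraries in one fit and -0.25 to 0.31 with 1 library left out (0.31 without vector replicate 1, with edgeR's unadjusted p = 0.0407 and adjusted p = 0.551, the one unadjusted p under 0.05 among the 9 genes in any alternative). ESR1 ranged from -0.22 to 0.53 with 1 library left out. ESR2 stayed between -1.34 and -1.03 in the 10 alternatives that kept it (not with at least 10 counts in every library or in the limma fits), and XBP1 between 0.16 and 0.25 in all 13. In MRCKα KO the 2-fold rule took 1 of the genes (PGR, lower), but with a pseudocount of 0.1 it took 1 other (ELF5, higher), 0 with a pseudocount of 1, with at least 10 counts in one library or with a mean FPKM of at least 1, 2 without the replicate filter (PGR and FOXA1), and 1 to 3 with a vector library left out (3 without vector replicate 2). In DKO it took 2 genes, but 0 with a pseudocount of 0.1 or 1 or a mean FPKM of at least 1, 1 with at least 10 counts in one library (ESR2), and 1 to 3 with 1 library left out (1 without vector replicate 1 or DKO replicate 2, 3 without vector replicate 2). Among the list medians in DKO, other settings turned the sign for the estrogen receptor targets (0.0018 with library size only, 0.01 in both limma fits), the luminal markers (0.0042 with no filter), the ERBB2 partners and neighbours (0.14 with no filter) and the chaperones and coregulators (0.04 in both limma fits). With 1 library left out of an arm, the lone library is assumed to vary like the others. At 0 to 6 counts per library, PGR, FOXA1 and ELF5 were limited by depth.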
